A study of Homo sapiens with 94 samples.

Results

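Divergent start sites are places where RNA polymerase begins transcription on the strand opposite to a gene's own start. The sites described here are all rows that the authors' deposited table of PRO-cap start sites lists in its divergent class, 6069 of 40675 sites in 7 classes. PRO-cap sequences the capped 5' ends of RNA that is still being made, so each site is a stretch of genome where such ends were counted on 1 strand. The cells were HEK293 T-Rex Flp-in, an embryonic kidney line in which doxycycline switches on an integrated TET-CD-GFP construct, the catalytic domain of a TET enzyme joined to a fluorescent protein. The 3 PRO-cap groups, with 3 libraries each, were cells given 880 nM 5-aza-2'-deoxycytidine (Aza) for 48 h, cells given 1 µg/mL doxycycline (Dox) for 48 h, and untreated cells. All 9 libraries carried the TET-CD-GFP construct and contained chicken DF-1 cells as a spike-in. Nascent RNA of cells given doxycycline without an active TET domain was not analysed here, so the drug and the induced protein cannot be told apart in the Dox group. Nothing in the labels says that the 3 libraries of a group came from separate cultures, so the p-values measure spread between these libraries, which may be technical.

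At most active mammalian promoters polymerase starts in both directions. The antisense RNA made upstream is usually ended early and removed by the nuclear exosome, while the sense RNA is elongated into the gene. Promoters rich in CpG, the dinucleotide that DNA methyltransferases methylate, are known for this pattern. TET enzymes oxidise 5-methylcytosine to 5-hydroxymethylcytosine, and Aza traps DNA methyltransferases on DNA. Aza and induced TET-CD would therefore act on cytosine methylation by different routes. No methylation values were used here. The comparisons ask how antisense initiation at promoters differed after each treatment, and whether it moved with the gene's own start.

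The promoters of 6 genes are shown first because their divergent sites carry the main contrasts below. The sites at SMOC2, FBLN1, WNT3A and UTF1 were higher with Dox and lower in Aza-treated than in Dox-treated cells, and those at CCT2 and ZBTB3 had the largest called decreases with Aza among sites of at least median level that carry a gene symbol. Each line is the 250 bases before the gene's annotated start on the gene's own strand, from RefSeq on GRCh38.p14, with every CG dinucleotide in capitals. CCT2 has 2 RefSeq entries, of which that with the lower coordinate is shown.
SMOC2: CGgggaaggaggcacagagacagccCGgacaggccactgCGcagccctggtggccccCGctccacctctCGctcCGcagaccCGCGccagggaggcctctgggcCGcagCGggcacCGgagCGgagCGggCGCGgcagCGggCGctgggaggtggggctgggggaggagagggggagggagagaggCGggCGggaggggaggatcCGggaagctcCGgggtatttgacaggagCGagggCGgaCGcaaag
FBLN1: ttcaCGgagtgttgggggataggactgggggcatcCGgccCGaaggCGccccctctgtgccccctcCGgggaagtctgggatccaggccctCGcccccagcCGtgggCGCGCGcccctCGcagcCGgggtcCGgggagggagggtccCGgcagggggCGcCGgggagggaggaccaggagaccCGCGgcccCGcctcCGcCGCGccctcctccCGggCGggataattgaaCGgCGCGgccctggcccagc
WNT3A: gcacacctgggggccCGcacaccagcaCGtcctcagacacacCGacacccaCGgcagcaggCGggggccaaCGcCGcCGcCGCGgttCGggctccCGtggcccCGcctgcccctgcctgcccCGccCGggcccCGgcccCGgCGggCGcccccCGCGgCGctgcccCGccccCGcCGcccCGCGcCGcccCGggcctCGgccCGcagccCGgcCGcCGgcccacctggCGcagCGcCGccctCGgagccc
UTF1: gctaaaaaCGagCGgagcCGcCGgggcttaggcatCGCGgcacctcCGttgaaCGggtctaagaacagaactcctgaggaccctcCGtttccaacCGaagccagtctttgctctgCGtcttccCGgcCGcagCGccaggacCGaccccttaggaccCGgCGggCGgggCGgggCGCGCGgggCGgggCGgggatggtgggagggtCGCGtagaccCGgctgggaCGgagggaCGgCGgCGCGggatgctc
CCT2: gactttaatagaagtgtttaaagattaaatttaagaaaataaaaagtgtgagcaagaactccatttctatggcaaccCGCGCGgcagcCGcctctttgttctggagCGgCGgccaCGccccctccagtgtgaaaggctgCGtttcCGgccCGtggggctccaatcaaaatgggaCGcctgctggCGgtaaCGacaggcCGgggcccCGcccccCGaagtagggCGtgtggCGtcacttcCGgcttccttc
ZBTB3: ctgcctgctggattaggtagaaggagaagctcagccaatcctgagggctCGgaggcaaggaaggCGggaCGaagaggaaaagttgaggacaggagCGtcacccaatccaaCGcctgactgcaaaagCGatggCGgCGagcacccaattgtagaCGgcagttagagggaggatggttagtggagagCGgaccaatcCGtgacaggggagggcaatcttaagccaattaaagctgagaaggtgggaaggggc

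These stretches lie at chr6:168440934-168441183 (SMOC2, plus strand), chr22:45502633-45502882 (FBLN1, plus), chr1:228006748-228006997 (WNT3A, plus), chr10:133229967-133230216 (UTF1, plus), chr12:69585209-69585458 (CCT2, plus) and chr11:62754161-62754410 (ZBTB3, minus) of GRCh38.p14. They held 24 CG dinucleotides for SMOC2, 27 for FBLN1, 38 for WNT3A and 32 for UTF1, against 19 for CCT2 and 11 for ZBTB3. The median was 21 over the 2494 promoters of genes with a divergent site and 10 over 27305 RefSeq promoters of the same length. The 6 genes were chosen by the change at their sites, and a window need not contain the divergent site. Among promoters that could be looked up, the median was 22 where a site rose and 22 where it fell with Dox. With Aza the medians were 22 and 21. Motifs were searched on both strands as exact letters. The GC box (GGGCGG) was in 5 of the 6 windows, all except ZBTB3. It was in 67.2% of promoters of genes with a divergent site and in 41.6% of all promoters. The CCAAT box (CCAAT) was in CCT2 and, at 5 places, in ZBTB3, in 32.2% of promoters of genes with a divergent site and in 32.9% of all promoters. The ETS core (CCGGAAGT) was in CCT2 alone, on the reverse strand at bases 235 to 242 of the line above, and in 3.6% of all promoters. A TATA box (TATAAA, 11.3% of all promoters) and a CRE (TGACGTCA, 1.74%) were in none of the 6 windows. Neighbouring GC boxes of UTF1 share a base, and no other matches overlap.

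The label of the class was checked against position. For each site the nearest primary start site on the opposite strand was found, a primary site being the main start of a gene in the same deposit. Of the 6069 sites, 6043 (99.6%) had a midpoint within 1500 bases of one. The whole site lay upstream of that primary site in 1526 cases (25.1%), which is the arrangement the word divergent describes. It overlapped the primary site, in whole or only at an edge, in 2735 cases (45.1%), which are called spanning here. It lay downstream of the primary site, facing back toward it, in 1808 cases (29.8%), an arrangement usually called convergent where the distance is short. Whether these sites lie inside the gene was not checked. The deposited class is therefore a set of antisense start sites around promoters, and the 3 positions are kept apart below. Against the strongest primary site of the same gene, which 4358 sites had, the shares were 13.1% upstream, 46.6% spanning and 40.3% downstream.

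**Figure D1:**
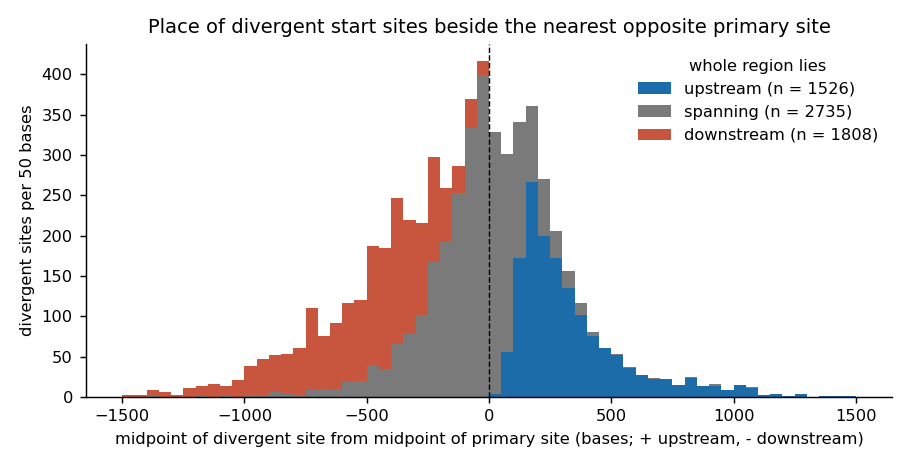
Distance of each divergent site's midpoint from the midpoint of the nearest opposite primary start site, in bases, stacked by whether the whole site lies upstream of that primary site, overlaps it (spanning) or lies downstream of it. Spanning sites (n = 2735) fill the centre, upstream sites (n = 1526) peak to the right and downstream sites (n = 1808) tail to the left. 26 sites farther than 1500 bases are not drawn.

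The positions differed in width and level. The mean normalized count over the 9 libraries, called the level here, had a median of 119 over all sites, from 2.22 to 5647. It was 74.5 at upstream sites, 369 at spanning sites and 28.2 at downstream sites, and the median widths were 205, 810 and 260 bases in the same order of position. Upstream sites lay a median of 265 bases from the primary midpoint and downstream sites 460 bases beyond it. A name of a gene was given for 4654 sites, over 3447 genes, of which 1059 had more than 1 site. The other 1415 sites are marked as not mapped to a gene. Only 1 site overlapped a primary site on its own strand, and 1 a secondary site. The classes come from the same deposit and hardly share places, so this cannot show whether a site is the start of a neighbouring gene. Annotated starts of neighbouring genes were not checked.

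The strongest sites were at KCTD15, LSM14A, TP53BP2, LIN9, C19orf12, EGLN1, PAPD7 and BEND3. The level at KCTD15 (chr19:34285790-34289310 of hg19, minus strand), computed per group from the authors' deposited mean and fold changes, was 5562 with Aza, 5550 with Dox and 5829 in untreated cells. At LSM14A, whose protein acts in mRNA processing bodies, it was 5379 with Aza, 5270 with Dox and 5198 in untreated cells. At EGLN1, the oxygen-sensing prolyl hydroxylase, it was 4274 with Aza, 4387 with Dox and 4234 in untreated cells. None of the 8 was called in the authors' deposited table, and their log2 changes ran from -0.22 at BEND3 to 0.14 at C19orf12 with Aza. The site at PAPD7 had no opposite primary site within 1500 bases.

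With Aza, 885 divergent sites (14.6%) were called against untreated cells in the authors' deposited table, at an adjusted p below 0.05 in columns of the form DESeq2 writes. Of these, 372 (6.13%) were higher and 513 (8.45%) lower. The median change over all 6069 sites was 0.01 on the log2 scale, so the calls split in both directions around a median near 0. Primary start sites were called at a rate of 12.2% in the same comparison (305 higher and 562 lower of 7112). In bulk cells, fewer cells with a change and less RNA per cell cannot be told apart. Called sites that rose had a median change of 0.59 at a median level of 205. Those that fell had a median of -0.43 at a median level of 508. Standard errors are larger at low levels, so a weaker site needs a larger change to be called.

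Among called sites of at least median level that carry a gene symbol, the set from which sites are named below, the largest decrease with Aza was at CCT2, a subunit of the TRiC chaperonin that folds actin and tubulin. Its upstream site (chr12:69978980-69979220 of hg19, minus strand) had a level of 182 with Aza, 216 with Dox and 418 in untreated cells. The Aza change in the authors' deposited table was -1.20 ± 0.38 (SE, DESeq2 adjusted p = 0.0156). The Dox change there of -0.95 ± 0.38 had an adjusted p of 0.0738. Among sites with levels from 210 to 584 the median Aza standard error was 0.13, so the CCT2 value is less certain than most there. ZBTB3, a BTB zinc-finger gene, had a site downstream of its start (chr11:62521370-62521530, plus strand) at 113 with Aza, 134 with Dox and 256 in untreated cells. That site fell with each treatment in the authors' deposited table, by -1.18 ± 0.20 with Aza (adjusted p = 1.04e-06) and -0.94 ± 0.20 with Dox (adjusted p = 0.000112). TLE2, a Groucho-family corepressor, had an upstream site at 247 with Aza, 294 with Dox and 433 in untreated cells. Its Aza change in the authors' deposited table was -0.81 ± 0.13 (adjusted p = 4.35e-07).

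The other sites named for a decrease with Aza were at the noncoding LINC00925, ZFYVE20 (an endosomal Rab effector), SHC2 (a signalling adaptor), RHBDD2, CDK5RAP1 (a mitochondrial tRNA-modifying enzyme), ZBTB7C and SC5D (a desaturase of cholesterol synthesis). At CDK5RAP1 the level was 351 with Aza, 450 with Dox and 634 in untreated cells, and its Aza change in the authors' deposited table was -0.86 ± 0.13 (adjusted p = 3.82e-08).

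Among sites that rose with Aza, CA4, a membrane carbonic anhydrase, had the largest change in that set. Its site downstream of the primary start, at a midpoint offset of -1215 bases (chr17:58240150-58241190, minus strand) had a level of 183 with Aza, 203 with Dox and 85.8 in untreated cells. In the authors' deposited table it changed by 1.10 ± 0.20 with Aza (adjusted p = 5.2e-06) and 1.24 ± 0.20 with Dox (adjusted p = 6.34e-08). GHRHR, the receptor of growth-hormone-releasing hormone, had a spanning site at 187 with Aza, 157 with Dox and 87.8 in untreated cells. LAMC3, a laminin chain, had a spanning site at 321 with Aza, 270 with Dox and 161 in untreated cells, and its Aza change in the authors' deposited table was 1.00 ± 0.14 (adjusted p = 1.01e-08). WDR43, a factor of ribosome assembly, had a site downstream of its start at 340 with Aza, 291 with Dox and 189 in untreated cells. The remaining sites of this group were at SLC35D2, TMEM105, PPP1R16B, ZSWIM2, TNS3 and CPA5. At SLC35D2 the Dox change in the authors' deposited table was 0.45 ± 0.20, with an adjusted p of 0.134.

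With Dox, 759 sites (12.5%) were called in the authors' deposited table, 433 (7.13%) higher and 326 (5.37%) lower than in untreated cells. The median change over all sites was 0.00. Primary sites were called at 11.3% (318 higher and 489 lower). The Aza and Dox comparisons share the same 3 untreated libraries, so their values are set side by side and no overlap between them is counted as a result. Sites called higher with Dox had a median Dox change of 0.67 and a median Aza change of 0.50, and sites called lower had medians of -0.42 with Dox and -0.43 with Aza.

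SMOC2, a secreted calcium-binding matrix protein, had the largest Dox increase in the same set of called sites of at least median level with a gene symbol. Its spanning site (chr6:168841650-168842330, minus strand) stood at 96.7 with Aza, 196 with Dox and 66.5 in untreated cells. In the authors' deposited table the Dox change was 1.56 ± 0.23 (adjusted p = 2.64e-09) and the Aza change 0.54 ± 0.24 (adjusted p = 0.108). SDC3, a heparan sulfate proteoglycan, stood at 304 with Aza, 431 with Dox and 197 in untreated cells. At FBLN1, the matrix glycoprotein fibulin 1, the level was 324 with Aza, 505 with Dox and 239 in untreated cells, and the Dox change in the authors' deposited table was 1.08 ± 0.13 (adjusted p = 2.39e-13). TNS3 (a focal adhesion protein), MFSD4, CA4, NT5C1A (a cytosolic nucleotidase), WNT3A (a WNT ligand) and TMEM155 were also among the 10 largest increases in that set. Of the sites named here for an increase with Dox, all except CA4 spanned the primary start.

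Decreases with Dox were smaller, and the called ones had a median level of 562 against 192 for called increases. In the same set the largest was at LINC00925, where the level was 91.2 with Aza, 93.4 with Dox and 186 in untreated cells, a Dox change of -0.99 ± 0.21 (adjusted p = 0.00017) in the authors' deposited table. SERTAD1, a transcriptional coregulator of E2F target genes, had a site at 298 with Aza, 267 with Dox and 472 in untreated cells. Its Dox change in the authors' deposited table was -0.82 ± 0.14 (adjusted p = 1.15e-06). BAX, a pro-apoptotic member of the BCL2 family, had a site at 310 with Aza, 325 with Dox and 531 in untreated cells. ZBTB3, ZFYVE20, FAM188A, SC5D, SHC2, RPL21 and CANT1 were the others named. RPL21 has many processed copies in the genome, so the assignment of its reads is uncertain.

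The balance of higher and lower calls varied with position. Of 1526 upstream sites, 49 rose and 192 fell with Aza, and 56 rose and 114 fell with Dox. Of 2735 spanning sites, 259 rose and 290 fell with Aza, and 339 rose and 190 fell with Dox. Of 1808 downstream sites, 64 rose and 31 fell with Aza, and 38 rose and 22 fell with Dox. The median log2 changes with Aza were -0.06 upstream, 0.01 spanning and 0.06 downstream. Those with Dox were -0.01, 0.02 and -0.03 in the same order of position. These are counts of calls in the authors' deposited table, and the difference between positions was not tested.

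Level moved with these counts and is given beside them. The sites were put in 5 equal groups by level. In the weakest, with a median level of 7.56, 21 sites rose and 1 fell with Aza, and 25 rose and 0 fell with Dox. In the strongest, with a median level of 973, 88 rose and 227 fell with Aza, and 88 rose and 160 fell with Dox. The median Aza change was 0.25 in the weakest group, where the median standard error was 0.75, and -0.07 in the strongest, where it was 0.09. Primary sites split at the same level bounds had 40 higher and 0 lower calls with Aza in the weakest group and 36 higher and 183 lower in the strongest, so the slope with level was not confined to divergent sites. Within the high level class, made by cutting all sites into 3 equal classes, the upstream sites (n = 385) had 7 higher and 120 lower calls with Aza and 6 higher and 77 lower with Dox. Spanning sites of that class (n = 1518) had 131 higher and 233 lower calls with Aza and 158 higher and 162 lower with Dox. Downstream sites of that class (n = 120) had 18 higher and 8 lower calls with Aza and 6 higher and 5 lower with Dox. The lower classes differed from this. Upstream sites of the low class (n = 640) had 16 higher and 0 lower with Aza and 14 higher and 0 lower with Dox. Those of the middle class (n = 501) had 26 higher and 72 lower with Aza and 36 higher and 37 lower with Dox. Spanning sites of the low class (n = 329) had 26 higher and 2 lower with Aza and 34 higher and 0 lower with Dox. Those of the middle class (n = 888) had 102 higher and 55 lower with Aza and 147 higher and 28 lower with Dox. Downstream sites of the low class (n = 1054) had 18 higher and 0 lower with Aza and 21 higher and 0 lower with Dox. Those of the middle class (n = 634) had 28 higher and 23 lower with Aza and 11 higher and 17 lower with Dox.

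**Figure D2:**
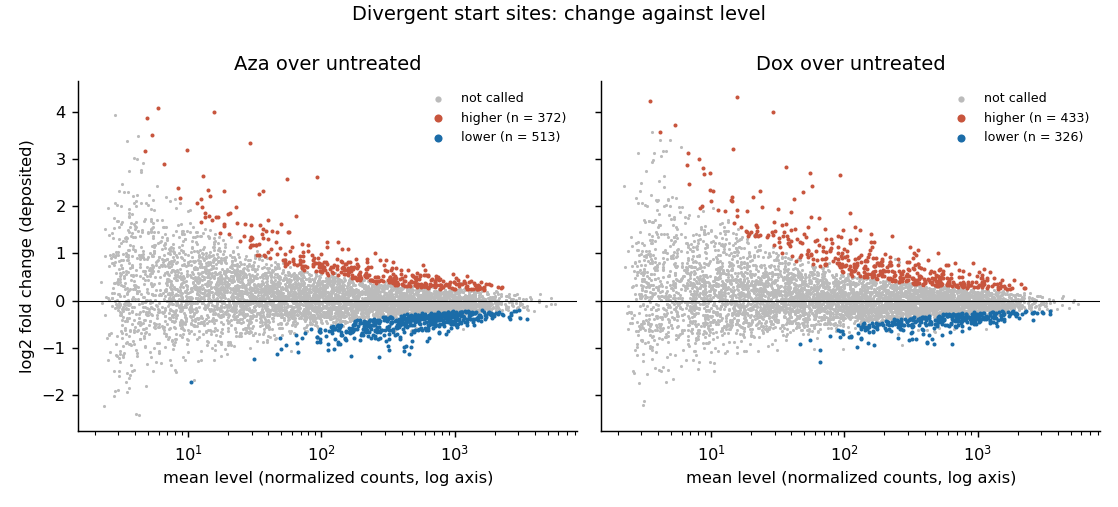
Deposited log2 fold change of each divergent site with Aza (left) and Dox (right) over untreated cells against its level, the mean normalized count, on a log axis. Called sites that rose (372 with Aza, 433 with Dox) reach low levels, whereas called decreases (513 with Aza, 326 with Dox) lie mostly at higher levels.

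**Figure D3:**
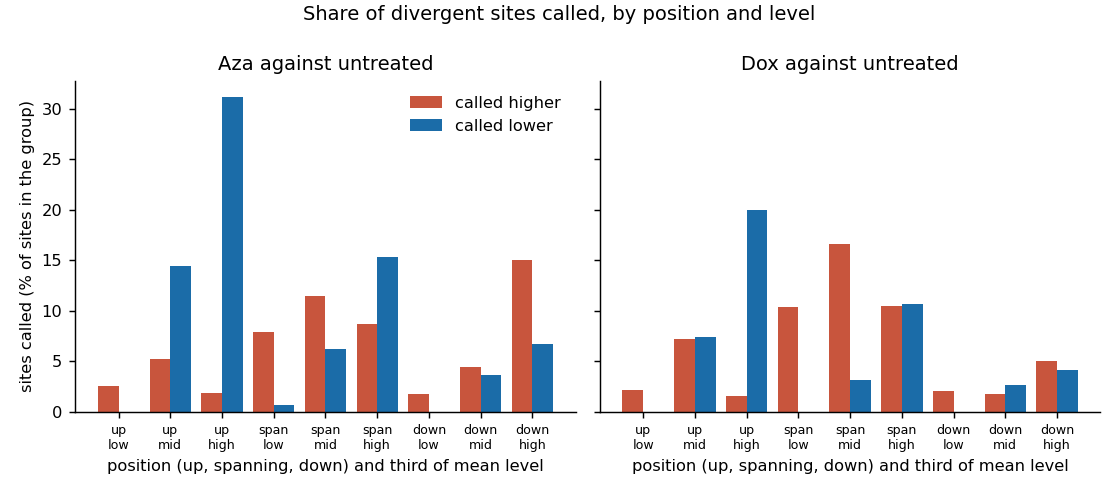
Percent of divergent sites called higher and lower with Aza (left) and Dox (right), by position beside the primary start (upstream, spanning, downstream) and by level class (low, middle, high). Decreases are most frequent at upstream sites of the high class, 31.2% with Aza and 20% with Dox.

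Aza and Dox were compared directly in the authors' deposited table. Of 6069 sites 15 (0.247%) were called, all 15 lower with Aza than with Dox, and 356 had an unadjusted p below 0.05. By construction this change equals the Aza change minus the Dox change. Of the 15 sites, 13 spanned a primary start, 12 carried a gene name, and 14 were called higher with Dox against untreated cells. Against untreated cells 5 of them were called higher and 1 lower with Aza. The 3 comparisons share libraries, so these counts only describe the 15 sites.

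The lowest adjusted p was that of an unnamed spanning site, chr1:1079510-1080650 on the minus strand of hg19. Its level was 135 with Aza, 392 with Dox and 152 in untreated cells, so the Aza and untreated groups lay close together and the Dox group stood apart. In the authors' deposited table the difference was -1.54 ± 0.15, with an adjusted p of 1.27e-21. SOX3, a SOX-family transcription factor of the early nervous system, stood at 27 with Aza, 80.3 with Dox and 18 in untreated cells, a low level that left it outside the naming rule. GSC2, a goosecoid-like homeobox gene, stood at 84.3 with Aza, 153 with Dox and 54.7 in untreated cells, likewise below the median level.

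The 5 sites named for this comparison were at SMOC2, TMEM155, FBLN1, WNT3A and UTF1, whose promoters, apart from TMEM155, are printed above. At WNT3A (chr1:228194290-228195250, minus strand) the level was 457 with Aza, 699 with Dox and 350 in untreated cells. The difference between Aza and Dox in the authors' deposited table was -0.61 ± 0.14 (adjusted p = 0.00588). UTF1, a chromatin factor of undifferentiated embryonic cells, had a site (chr10:135043710-135044290, minus strand) at 259 with Aza, 386 with Dox and 270 in untreated cells. Its difference in the authors' deposited table was -0.57 ± 0.13 (adjusted p = 0.0053), with an Aza change of -0.06 ± 0.13. The difference was -0.64 ± 0.13 at FBLN1 (adjusted p = 0.00209) and -1.02 ± 0.22 at SMOC2 (adjusted p = 0.00393) in the authors' deposited table. DOC2B, SDC3, EPHA8 (an ephrin receptor), the clone-named RP3-462D8.2, LRP2 (the endocytic receptor megalin) and 2 unnamed upstream sites made up the rest. LRP2 alone was called lower with Aza, by -0.33 ± 0.11 (adjusted p = 0.0178), while its Dox change was 0.09 ± 0.10 in the authors' deposited table.

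**Figure D4:**
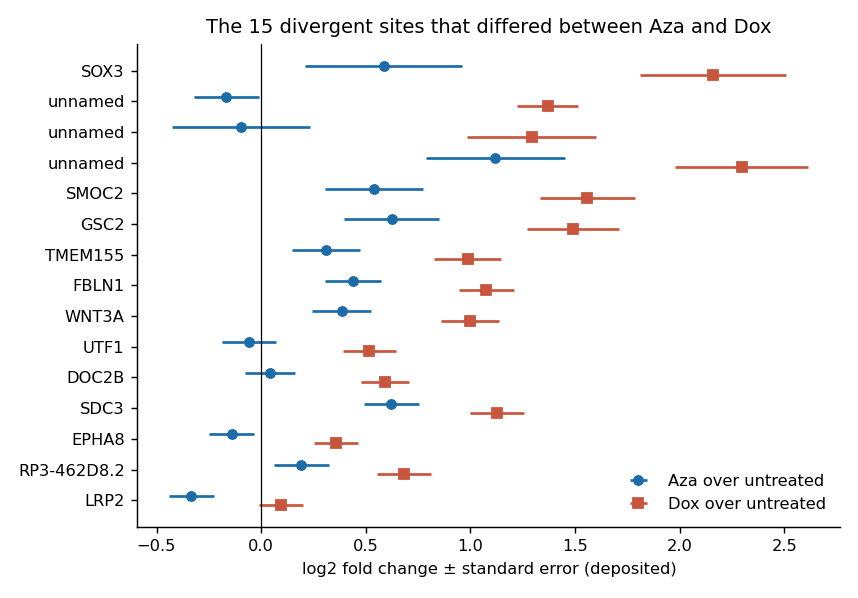
Deposited log2 fold change with its standard error at the 15 divergent sites that differed between Aza and Dox, for Aza (circles) and Dox (squares) over the same untreated libraries, from the largest difference at the top (SOX3) to the smallest (LRP2). All 15 Dox values are positive, from 0.09 to 2.30, and the Aza values run from -0.33 to 1.12.

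Each divergent site was then set against the primary start of the same gene, which asks whether antisense initiation changed apart from the gene's own. In each of 3205 genes the strongest divergent and the strongest primary site were taken, and the difference of their log2 changes was tested by z with Benjamini-Hochberg adjustment over all genes. The standard errors were taken as independent, although the sites come from the same libraries. With Aza the change differed in 171 genes (5.34%), with the divergent site above the primary in 111 and below it in 60. With Dox it differed in 120 genes (3.74%), 90 above and 30 below. The median difference was 0.06 with Aza and 0.06 with Dox. Between Aza and Dox 0 genes differed at the adjusted threshold and 61 had an unadjusted p below 0.05. The split depended on centring. With each class centred on its own median, 87 genes were above and 83 below with Aza, and 49 above and 39 below with Dox. The split also turned with the source of the primary value. Taken from the authors' initiation table instead, the divergent change was above the primary in 51 genes and below it in 67 with Aza, and above in 30 and below in 33 with Dox. With standard errors correlated at 0.5, 600 genes differed with Aza and 572 with Dox.

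In most genes the starts moved in the same direction where both were called. With Aza both starts were called in 135 genes, of the same sign in 128, and 419 genes had a call at the divergent site alone and 398 at the primary site alone. In 62 of those 419 and 88 of those 398 the difference itself passed the test. With Dox both were called in 133 genes, of the same sign in 121, and the single calls numbered 377 at the divergent and 371 at the primary site. Pearson's r of the changes across the 3205 genes was 0.57 with Aza and 0.63 with Dox, a description over genes that share libraries and untreated samples.

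RAP1GAP, which switches off the GTPase Rap1, had a divergent site that rose beside a primary start that was not called. The divergent site had a level of 52.7 with Aza against 19.1 in untreated cells, and the primary site 633 with Aza against 645 in untreated cells. The difference of the log2 changes was 1.49 ± 0.37 with Aza (adjusted p = 0.00415, by z) and 1.18 ± 0.37 with Dox (adjusted p = 0.0415). At STK40, a serine/threonine kinase-like protein, it was the primary start that fell, to 390 with Aza against 1060 in untreated cells, and the divergent site stood at 107 with Aza against 89.8 in untreated cells. The difference there was 1.69 ± 0.39 (adjusted p = 0.00202). SLC25A42 (a mitochondrial carrier of coenzyme A), MRFAP1L1, C21orf33 and STAMBP (a deubiquitinase) likewise had a divergent change above that of the primary site with Aza. With Dox the largest such differences included FBLIM1, TMEM106C, VPS13D and BRK1, a subunit of the WAVE complex, at which the primary start had 142 with Dox against 260 in untreated cells and the divergent site 1453 with Dox against 1319 in untreated cells.

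The reverse pattern appeared at NRN1, which encodes the neuronal growth factor neuritin. Its divergent site had 309 with Aza against 454 in untreated cells, while the primary site had 176 with Aza against 131 in untreated cells, and the difference was -0.99 ± 0.23 (adjusted p = 0.002). PANK4, METTL7A and the clone-named RP3-395M20.12 also had divergent changes below the primary with Aza. At SERTAD1 the divergent site had 267 with Dox against 472 in untreated cells and the primary site 1134 with Dox against 1048 in untreated cells. The difference there was -0.94 ± 0.18 (adjusted p = 0.000106). PIGZ, PAMR1, MFSD5 and RP11-320G24.1 showed differences of the same sign with Dox. SDHAP1 and ABCB10P1, which passed the same test, are pseudogenes with near-identical copies, and their values are uncertain.

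**Figure D5:**
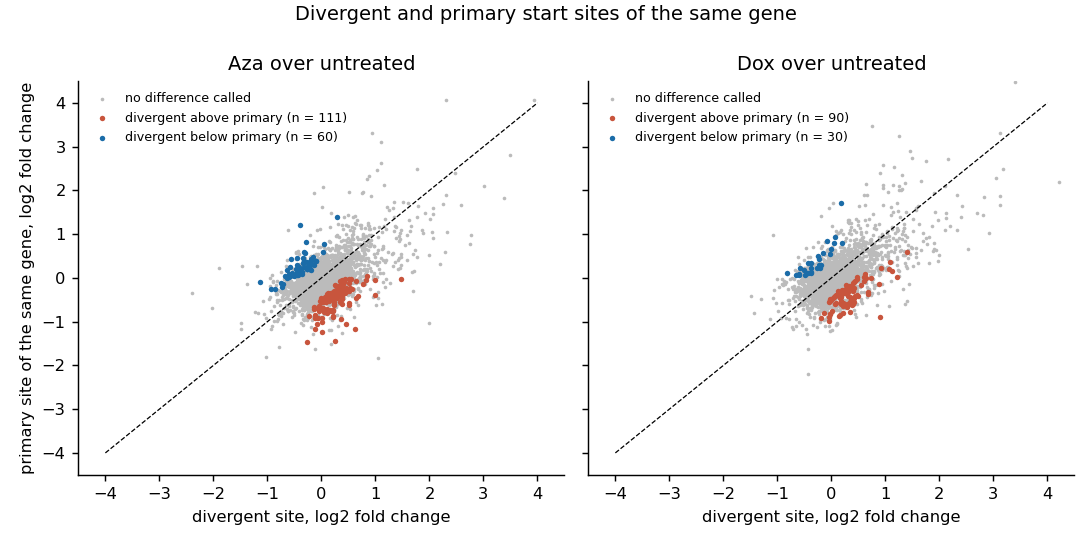
Log2 fold change of the strongest divergent site against that of the strongest primary site in 3205 genes, with Aza (left) and Dox (right) over untreated cells. The dashed line marks equal change, and coloured points are genes whose difference was called, 111 above and 60 below with Aza, 90 above and 30 below with Dox. A total of 3 genes in the Aza panel and 1 in the Dox panel fall outside the axes.

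The difference between divergent and primary change is next given by position. Position is still that beside the nearest opposite primary site, which is not always the strongest primary site used in the difference. At PANK4, for example, the site counted as upstream lay downstream of the primary site it was compared with. Genes whose strongest divergent site lay upstream (n = 340) had 7 differences above and 14 below with Aza, with a median of -0.07. Genes with a spanning site (n = 2141) had 83 above and 43 below, with a median of 0.06. Genes with a downstream site (n = 724) had 21 above and 3 below, with a median of 0.13. With Dox, the upstream genes had 9 above and 8 below (median 0.00), the spanning genes 78 above and 21 below (median 0.07) and the downstream genes 3 above and 1 below (median 0.06). The divergent level in the downstream genes had a median of 48.8 beside a primary level of 458. Whether the positions differ from each other was not tested.

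A further pair of deposited tables covers the same places. The divergent initiation table lists 6022 windows, of which 6021 are these sites lengthened by 100 bases in the direction of transcription, and its levels were a median of 0.42 of those in the start-site table. The assay behind it is not given in the sources used here. The windows contain the sites themselves. It called 192 windows with Aza (3.19%) and 179 with Dox (2.97%). Over all 6021 windows 75.2% had a change of the same sign as the site with Aza and 76.2% with Dox. Of the 372 sites that rose with Aza, 368 had a window change of the same sign and 67 were called, and of the 513 that fell, 496 had the same sign and 84 were called. Of the 433 that rose with Dox, 429 had the same sign, and of the 326 that fell, 319. It was not tested whether these tables rest on separate libraries.

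The divergent elongation table lists 2882 windows that begin a median of 151 bases past a site and had a median level of 7.77, with a median standard error of 0.68 on the log2 scale for Aza, so only large changes were detectable. Only 2 windows (0.0694%) were called with Aza in the authors' deposited table, both higher and both without a gene name, and 0 with Dox, where 61 had an unadjusted p below 0.05. Over all windows, 1691 of 2882 (58.7%) had the sign of the site with Aza and 1832 (63.6%) with Dox. At sites that rose with Aza the median window change was 0.23, with 160 of 256 (62.5%) of the same sign, and at sites that fell it was -0.21, with 203 of 285. At sites that rose with Dox the median was 0.44, with 264 of 338, and at sites that fell it was -0.24, with 117 of 166. The change at the site differed from that in its window, by the z test, at 0 sites above and 1 below with Aza, where 66 had an unadjusted p below 0.05, and at 0 sites with Dox, where 27 had one.

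Total RNA of the same treatments was measured in other libraries. In the authors' deposited tables TET1 rose by 2.34 ± 0.03 with Dox in the TET-CD line and by 1.98 ± 0.03 in the line with mutant TETMut-CD. With Aza it changed by -0.08 ± 0.07 (adjusted p = 0.33) in those tables. This checks the Dox labels of the total RNA libraries only. It does not check the PRO-cap labels, nor which line carries the active domain. Of the 7 genes chosen as HEK293 markers 6 had a value, with a median of 3905 normalized counts, although NEFM had only 6.23, and the 7 listed of 8 markers of other lineages reached at most 20.7. With Aza 14.3% of 16523 genes were called in sense total RNA, and with Dox 0.883% of 14942. Among 245 genes with a site that rose with Aza, 41 rose and 17 fell in total RNA (23.7% called). Among 309 with a site that fell, 16 rose and 37 fell (17.2%). Among 2639 with a site not called with Aza, 202 rose and 224 fell (16.1%). The median total RNA changes were 0.016, -0.011 and -0.002 in the same order. Among 257 genes with a site that rose with Dox, 8 rose and 0 fell (3.11%). Among 206 with a site that fell, 1 rose and 1 fell (0.971%). Among 2566 with a site not called with Dox, 13 rose and 7 fell (0.779%). Antisense total RNA was called at 4.88% of 3671 genes with Aza and 0.303% of 3296 with Dox. Of the genes with a called divergent site and an antisense value, 37 with Aza and 28 with Dox, 0 were called in antisense total RNA. The stretches of gene that the antisense table covers are not given in the sources used here.

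Gene groups were described by their sites, with 11 of 12 lists holding at least 1. The lists were small, so each count stands beside the share of all sites called, 14.6% with Aza and 12.5% with Dox. Of 14 sites at 10 p53 target genes, 3 rose and 1 fell with Aza, with a median change of 0.20 beside 0.01 over all sites. With Dox 1 of these sites rose and 1 fell, with a median change of 0.04. The site of SPATA18, a mitochondrial quality-control gene, stood at 1189 with Aza, 960 with Dox and 932 in untreated cells. That of PGF, a growth factor of the VEGF family, rose with each treatment, while the site of BAX fell with each. At PGF the level was 371 with Aza, 445 with Dox and 260 in untreated cells. At AEN, an apoptotic nuclease, 1 site of level 61.9 rose, and another of level 62.7 was not called. Of 18 sites at 10 mitochondrial ribosomal protein genes, 1 rose and 4 fell with Aza and 1 rose and 2 fell with Dox. The riser in each was MRPL39, at 1151 with Aza, 1198 with Dox and 857 in untreated cells. MRPS10 had 267 with Aza, 284 with Dox and 404 in untreated cells, and MRPL22 and MRPL45 fell with Aza as well. Of 39 sites at 23 cytosolic ribosomal protein genes, 0 rose and 3 fell with Aza, at RPL3, RPL8 and RPL21, and 1 rose and 3 fell with Dox. These genes also have processed copies.

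Among 21 sites at 14 immediate early genes, 2 fell with Aza, both at KLF10, and 2 with Dox, 1 of them at DUSP6, a phosphatase of ERK. In the list of G2 and M phase, with 17 sites at 12 genes, CCNB1 rose and BIRC5 fell with Aza, and 0 sites were called with Dox. Of 8 sites at 6 genes of S phase and replication, 1 of the POLA2 sites and that of RFC3 fell with Aza. At 6 sites of 4 housekeeping genes, that of YWHAZ fell with each treatment. No site was called at 5 histone genes, at 6 genes for decay and termination of upstream antisense RNA such as INTS1 and XRN2, or at IRF1, the only interferon-response gene with a site. The germline and cancer-testis list had no gene with a site.

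Of the list of genes linked to cytosine methylation, 5 had sites, among them GADD45A, a stress-response gene with a reported link to DNA demethylation, which had 0 called sites. DNMT3A, a de novo methyltransferase, had a spanning site at 780 with Aza, 784 with Dox and 964 in untreated cells. In the authors' deposited table it fell with Aza by -0.31 ± 0.11 (adjusted p = 0.0467), and the Dox change of -0.30 ± 0.11 had an adjusted p of 0.059. DNMT3B stood at 408 with Aza, 410 with Dox and 383 in untreated cells, and was called in neither comparison. MBD2, a methyl-CpG binding protein, had 3 sites, 1 at each position, none of them called. The TET3 site had a level of only 4.10 and was not called. Sites of TET1, TET2, DNMT1 and UHRF1 are not among the rows used here.

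Promoter letters could be looked up for 2496 of the 3447 named genes (72.4%). Any comparison of the called groups by sequence is void as a check, because fewer than 80% of the names in 3 of the 4 called groups, and in the whole, had an entry. The matched promoters are described only. The ETS core was in 0.49% of 204 matched promoters of genes with a site that rose with Aza and in 12.2% of 255 with a site that fell, and in 0% of 227 and 12.4% of 177 for Dox, beside 4.89% of all matched genes with a site. The median number of CG dinucleotides was 22 for sites that rose and 21 for sites that fell with Aza. With Dox it was 22 for sites that rose and 22 for sites that fell, and it was 21 over all matched genes with a site. The GC box was in 68.6% of promoters of sites that rose and 61.2% of those that fell with Aza. With Dox the shares were 71.8% and 65%. The CCAAT box was in 24.5% and 29.8% with Aza and 21.1% and 31.1% with Dox, in the same order. The TATA box was in 3.43% and 5.49% with Aza and 3.52% and 5.65% with Dox. The CRE was in 2.45% and 3.92% with Aza and 2.2% and 3.39% with Dox. Called sites that fell also had a higher median level, 508 against 205 with Aza and 562 against 192 with Dox. The part of level in these shares was not tested.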

How the data were processed

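PRO-cap libraries (9, in 3 groups) of HEK293 TET-CD-GFP cells were grouped by the labels' titles. The tools named in the submitters' processing notes are Trim Galore 0.4.3, STAR 2.4.2, bedtools 2.20.1, R 3.5.1 and DESeq2 1.22.1; the builds are hg19 and, for the spike-in, galGal5. How the spike-in entered the scaling is not given in the sources used here. As signal the authors deposited 1 mean of normalized counts for each site, taken over all 9 libraries. As log2 values the authors deposited a fold change and standard error for each comparison, not shrunken in the nascent tables and shrunken in the total RNA tables, as the values show. The authors also deposited a score, which equals the log2 change divided by its standard error. The p-value columns the authors deposited hold raw values and values adjusted by Benjamini-Hochberg over all rows, which recomputation matched. Single libraries have no values in these tables, which leaves no refit and no SD, and the depth of each library is unknown. The start coordinates are printed as the files give them, whose counting base is not stated.

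Levels per group were computed from the deposited mean and the fold changes, as 3 times the mean divided by the sum of 1 and the linear Aza and Dox folds for untreated cells, times each fold for the treated groups. Position was taken from the nearest primary site on the opposite strand. Calls used an adjusted p below 0.05. Sites were named, among called sites of at least median level with a symbol that is no clone name, as the 10 largest changes in each direction with Aza and with Dox and the 5 largest between them, with the 8 highest levels, the 6 largest differences from the primary site in each direction, up to 4 members of each of 12 lists by raw p with Aza, and 9 methylation genes. The site at GSC2, SOX3 and the other called sites of the Aza and Dox comparison that this leaves out were named after their values were seen. Some sites that this rule names are not reported here. The members, rules and lists were chosen with earlier results of these data known. The tables hold 12 outlier columns that nothing explains, and these were left out. Computation used Python 3.11.15, pandas 2.3.3, numpy 2.4.6, scipy 1.17.1 and matplotlib 3.10.9.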

Additional observations from a re-analysis of the deposited data

How the results depend on the processing

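No paired analysis was possible because no table lists single libraries, and for the same reason neither a replicate block nor leaving out each replicate was run. At an adjusted p below 0.01 there were 483 calls with Aza (193 higher, 290 lower) and 411 with Dox (253 higher, 158 lower). At an adjusted p below 0.1, 518 sites were lower with Dox, and 28 differed between Aza and Dox (2 higher, 26 lower). Between Aza and Dox 1 site became higher when changes were centred on the divergent or the primary median, or when sites below a level of 10 were left out, so that all 15 being lower holds at the deposited setting. For divergent minus primary, standard errors correlated at 0.5 gave 600 differences with Aza (396 above, 204 below), 572 with Dox (392 above, 180 below) and 2 between Aza and Dox (2 below). At an adjusted p below 0.01 there were 63 with Aza (48 above, 15 below) and 29 with Dox (26 above, 3 below). Each class centred on its own median left 49 above with Dox. With the primary value from the initiation table, 51 were above and 67 below with Aza, and 63 differed with Dox (30 above, 33 below), so the excess above the primary did not hold there; the cause was not tested. With genes of 1 divergent and 1 primary site, which leaves 1349 of 3205 pairs, there were 50 with Aza (37 above, 13 below) and 33 with Dox (25 above, 8 below). Another 104 counts stayed within 1.5 times. Pairing each site with its nearest primary site and keeping sites within 1500 bases of one were chosen after seeing the data. The low levels limit the elongation windows and the weakest sites most.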

Other observations

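Divergent sites at long noncoding genes and genes with clone names (414 sites, median level 45.1) had 48 higher and 15 lower calls with Aza and 51 higher and 11 lower with Dox in the authors' deposited table, beside 372 higher and 513 lower, and 433 higher and 326 lower, over all sites. Sites at zinc-finger genes named ZNF, ZSCAN, ZKSCAN or ZFP numbered 160, with a median level of 139. With Aza 6 (3.75%) were higher and 19 (11.9%) lower, and with Dox 3 (1.88%) higher and 11 (6.88%) lower. The share called was 15.6% with Aza and 8.75% with Dox, beside 14.6% and 12.5% over all sites. In the level group of all sites with a median of 119, 8.49% were higher and 6.92% lower with Aza. With Dox 10.4% were higher and 3.87% lower in that group. The part of level in these counts was not tested. These families were chosen after the values were seen.

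Calls are also given by chromosome, for a few of 23 that were picked with the values known. Over all sites 6.13% were higher and 8.45% lower with Aza, and 7.13% higher and 5.37% lower with Dox. On chromosome 19 (353 sites, median level 74.2), 8 sites (2.27%) were higher and 42 (11.9%) lower with Aza. With Dox 14 (3.97%) were higher and 27 (7.65%) lower there. On chromosome 1 (673 sites, median level 146), 65 (9.66%) were higher and 48 (7.13%) lower with Aza. With Dox 63 (9.36%) were higher and 39 (5.79%) lower there. On chromosome 2 (416 sites), 26 (6.25%) were higher and 23 (5.53%) lower with Aza. With Dox 32 (7.69%) were higher and 9 (2.16%) lower there. Of the 15 sites that differed between Aza and Dox, 5 were on chromosome 1 and 4 on chromosome 22, which held 143 sites. Gene density and level also vary by chromosome, and their part in these counts was not tested.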
